A study of Mus musculus with 32 samples.

Results

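The genes described here build the cytoskeleton and the synapses of neurons. Of 38 listed genes, 37 had a probe set annotated to a single gene symbol and were measured, out of 19938 genes on the array. Vamp2, a vesicle fusion protein, was matched only by a probe set that carries several symbols and is left out. The 37 members were grouped by role into 12 cytoskeletal genes, 9 genes of the synaptic vesicle and its release, 3 of secretory granules, 4 of adhesion and signalling, 6 RNA-binding proteins and 3 transcription factors. The list was drawn up from knowledge of neurons and not from a threshold on these data, but with earlier results of the same arrays known.

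The values come from 32 Affymetrix Mouse Gene 1.0 ST arrays of neurosphere cultures grown from mouse brain tumours. All cells were Trp53-deficient (strain B6;129-Trp53tm1Brd), came from neurosphere cells of the wall of the lateral ventricle after birth, and formed tumours after transplantation into the brain. Tumour cells that carried the transgene were sorted by flow cytometry and grown again as spheres before RNA was taken. Every group analysed here carried at least 1 added oncogene, so there is no group of untransformed cells to compare with. Overexpressed HRAS alone (5 arrays) or HRAS+Bmi1 (2 arrays) gave tumours labelled glioma. Overexpressed MYC alone (6 arrays), MYC+Ezh2 (5 arrays) and MYC+Bmi1 (3 arrays) gave tumours labelled PNET, a primitive neuroectodermal tumour. Simultaneous HRAS+MYC (7 arrays) gave tumours labelled AT/RT-like, after the atypical teratoid/rhabdoid tumour. The secondary tumours arose when spheres from a PNET later received HRAS (called MYC then HRAS, 2 arrays) or spheres from a glioma later received MYC (called HRAS then MYC, 2 arrays). HRAS signals as a GTPase to the MAP kinases, MYC drives transcription for growth, and Ezh2 and Bmi1 belong to Polycomb repressive complexes. The labels give neither the promoter that drives the transgenes nor whether arrays of 1 group came from separate tumours, and a p-value here weighs a difference against the variation among arrays, which may be technical.

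Neurons assemble their processes from microtubules and intermediate filaments. Tubb3 is a neuronal beta-tubulin, Map2, Mapt and Dcx bind microtubules, the stathmins Stmn2, Stmn3 and Stmn4 bind tubulin, and Nefl, Nefm and Ina form neurofilaments. Synaptic vesicles carry Syp and the synapsins, and fuse with the membrane through SNARE proteins such as Snap25 and Stx1a under control of calcium-binding synaptotagmins. Large dense-core granules hold granins such as Scg2, Scg3 and Chgb. Many of these genes are kept silent outside the nervous system by the repressor REST, and their transcripts are bound and spliced in neurons by Elavl and Rbfox proteins.

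Each value is a log2 expression value, so a difference of 1 is a doubling, and values of different genes are not set against each other because probe sets differ in brightness. Arrays of a group correlated at 0.940 to 0.994 over all genes, and none were near identical. As a check of the labels, MYC+Ezh2 arrays gave 12.16 ± 0.119 (SD, n = 5) for mouse Ezh2, and MYC arrays 10.52 ± 0.324 (SD, n = 6). Mouse Bmi1 in MYC+Bmi1 arrays (10 to 10.22) reached into the MYC range (9.58 to 10.07), so it does not check that label. In HRAS+Bmi1 it was 10.06 and 10.70, and the highest HRAS array reached 10.23. Mouse Myc was lower in the MYC groups than with HRAS alone (7.0 ± 0.737 in MYC, SD, n = 6, and 11.36 ± 0.995 in HRAS, SD, n = 5), against the direction of the labels. The species of the added MYC is not given in the sources used here, so the mouse probe set may not measure it and does not check that label. HRAS replicate 3, MYC replicates 4 and 5 and single arrays of other groups stood apart in the members, as described below, and results whose call or size rests on them are given with and without them. They stood apart in the tested values themselves, so a call made without them describes their weight and is no independent test. The mean over 6 microglia and macrophage markers was 4.45 to 5.06 in every array and over 6 endothelial and pericyte markers 4.62 to 5.47, both below the array medians of 5.59 to 5.79. Single markers were higher, Pdgfrb with 7.71 and 6.63 in HRAS then MYC and 6.69 in HRAS replicate 3, and Pecam1 with 7.5 in HRAS replicate 5. Of the 6 endothelial and pericyte markers 2 were higher in HRAS than in MYC (33.3%, at the background of 33.4% of all genes). In HRAS then MYC 2 were higher and 1 lower than in HRAS (50%, against 12.5% of all genes). Neural stem markers (5 genes) averaged 6.70 to 10, astrocyte markers (6 genes) 5.79 to 9.19 and oligodendrocyte lineage markers (7 genes) 5.62 to 8.55. In bulk RNA, fewer cells of a neuronal kind and less neuronal RNA per cell cannot be told apart.

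The members varied more than most genes. The median range of a member over the 32 arrays was 4.79 log2 units, against 1.28 for all genes, and all 37 exceeded that value. The highest group mean fell in a MYC group without HRAS for 25 members, of which 13 were highest in MYC+Bmi1, 8 in MYC and 4 in MYC+Ezh2. Another 10 were highest in HRAS+Bmi1, while Gap43 was highest in HRAS and Stmn2 in HRAS+MYC. The lowest mean fell in HRAS then MYC for 16 members, in HRAS+MYC for 8 and in MYC then HRAS for 7. Most members thus had their highest mean in 1 of the 3 MYC groups without HRAS and their lowest in a group with both oncogenes. The share of all genes with this order was not counted, so these counts have no background. Means of groups with 2 arrays also reach an extreme more easily. Some lowest means were close to those of other groups, such as Chgb at 5.0 in HRAS then MYC and 5.14 in MYC then HRAS.

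**Figure D1:**
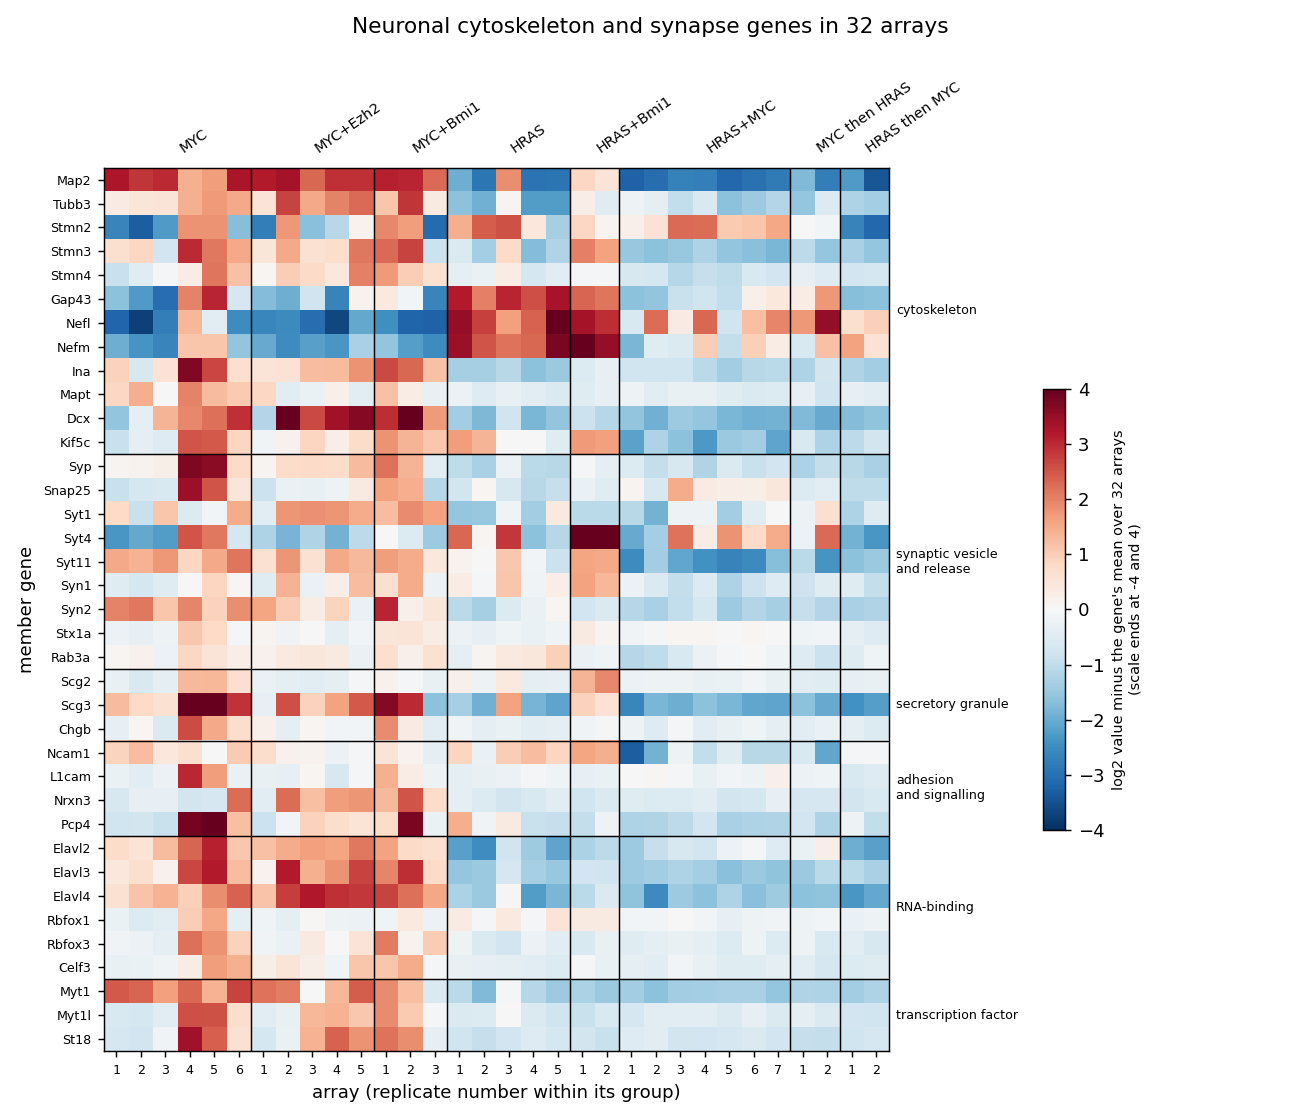
Each row is a member and each column an array, grouped by role and by oncogene, and the colour is the log2 value minus the gene's mean over 32 arrays (scale ends at -4 and 4). Most rows are red in the 3 MYC groups on the left and blue in most groups with HRAS, but 10 members are highest in HRAS+Bmi1. Nefl and Nefm are blue in most MYC arrays and red in HRAS and HRAS+Bmi1. Gap43 is red in HRAS, HRAS+Bmi1 and MYC then HRAS. MYC replicates 4 and 5 are redder than the other MYC arrays in many rows.

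The first comparison set HRAS glioma cells against MYC PNET cells. In HRAS cells 18 of 37 members were lower and 3 higher (limma, adjusted p under 0.05), and 16 did not pass. Over all genes 33.4% passed, 18% lower and 15.4% higher in HRAS. The median member difference was -1.15, against -0.03 over all genes. The ranges of both groups did not overlap for 11 members, which holds for 15.8% of all genes. Among the 12 cytoskeletal members 6 were lower and 3 higher, among the 6 RNA-binding members 5 were lower, and none of the 4 adhesion and signalling members passed. Some markers of other neural cells moved beside them, with 4 of 6 astrocyte markers lower and 1 higher (median -1.2), 3 of 5 neural stem markers lower and 1 higher (median -1.57) and 1 of 7 oligodendrocyte lineage markers lower (median -0.66). Their part in the member differences was not tested.

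Among the microtubule genes, Map2 ran from 9.55 to 11.39 (median 11.05) in the 6 MYC arrays and was 6.18, 5.24, 9.99, 5.20 and 5.21 in HRAS replicates 1 to 5. HRAS replicate 3 thus lay inside the MYC range and the other HRAS arrays far below it. Map2 was lower in HRAS by -4.34 ± 0.560 (log2, SE; adjusted p 6.1e-07), and by -5.24 without HRAS replicate 3. Tubb3 ran from 8.30 to 9.66 (median 8.93) in MYC and was 6.31, 6.04, 8.08, 5.72 and 5.73 in HRAS arrays. Here the groups did not overlap, although HRAS replicate 3 came close, and the difference was -2.59 ± 0.443 (adjusted p 3.69e-05). Dcx, a microtubule protein of migrating young neurons, spanned 5.19 to 9.70 within MYC and 4.93 to 5.98 in HRAS. MYC replicate 1 (5.19) was as low as the HRAS arrays. Its fall of -2.55 ± 0.733 (adjusted p 0.00729) did not pass without MYC replicates 4 and 5 (-2.06, adjusted p 0.0529).

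The axonal tau protein Mapt fell by -1.51 ± 0.261 (adjusted p 3.93e-05), from 6.28 to 8.26 (median 7.42) in MYC to 6.05, 5.75, 5.98, 5.82 and 5.68 in HRAS, and the ranges did not overlap. Stmn3 fell by -2.05 ± 0.550 (adjusted p 0.00416). HRAS replicates 1 and 3 (6.67 and 8.02) stood within the MYC range of 6.50 to 10.25, and without MYC replicates 4 and 5 the call was lost (-1.39, adjusted p 0.0522). Stmn4 (-0.65) and Kif5c, a kinesin motor of axonal transport (-0.16), did not pass. Stmn2 was 2.15 ± 0.961 above MYC without passing (adjusted p 0.0894). It rested near 5 in MYC replicates 1, 2, 3 and 6 (4.81, 4.14, 5.18 and 5.75) and at 9.25 and 9.23 in replicates 4 and 5, and it passed without both of those (3.57, adjusted p 0.0024) or without MYC replicate 4 (2.72), MYC replicate 5 (2.71) or HRAS replicate 5 (2.76) alone.

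Neurofilament genes split. Nefl, the light chain, was 11.72, 10.93, 9.86, 10.56 and 12.26 in HRAS and 4.48 to 9.53 (median 5.57) in MYC arrays. Every HRAS array exceeded every MYC array, and Nefl rose by 4.74 ± 0.702 (adjusted p 4.88e-06), the widest rise of a member. Nefm, the medium chain, was 10.73, 9.80, 9.44, 9.56 and 11.04 in HRAS against 4.63 to 8.39 (median 5.51) in MYC and rose by 3.89 ± 0.604 (adjusted p 9.44e-06). In both genes the highest MYC values were those of replicates 4 and 5 (Nefl 9.53 and 7.79, Nefm 8.39 and 8.37). Ina, the alpha-internexin of early neurofilaments, went the opposite way. It was 6.17, 6.18, 6.41, 5.86 and 6.03 in HRAS, below all MYC values (6.87 to 11.21, median 8.32), a fall of -2.70 ± 0.460 (adjusted p 3.3e-05), or of -1.77 (adjusted p 2.33e-05) without MYC replicates 4 and 5. Gap43, a growth cone protein, was 11.53, 10.39, 11.43, 10.95 and 11.68 in HRAS and rose by 3.26 ± 0.792 (adjusted p 0.00178). MYC spanned 5.31 to 11.43 (median 7.21), and replicates 4 (10.37) and 5 (11.43) came up to the HRAS level.

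Genes of vesicles and granules followed the microtubule genes in part. Syp, the main membrane protein of synaptic vesicles, was 6.77 to 10.42 (median 7.20) in MYC and 5.65, 5.38, 6.45, 5.58 and 5.55 in HRAS. No HRAS array reached the MYC range, and Syp fell by -2.39 ± 0.534 (adjusted p 7.78e-04). MYC replicates 4 and 5 (10.42 and 10.27) stood far above the other MYC arrays (6.77 to 7.48), and without both the fall was -1.27 (adjusted p 0.00337). Syn2, a synapsin that tethers vesicles, fell by -2.29 ± 0.371 (adjusted p 1.78e-05) from 7.78 to 8.96 (median 8.78) to 5.77, 5.52, 6.31, 6.6 and 6.93, again with no overlap. Its relative Syn1 did not pass (0.42). Among the synaptotagmins, Syt11 fell by -1.48 ± 0.313 (adjusted p 4.36e-04), while Syt1, the fast calcium sensor (-1.15, adjusted p 0.0570), and Syt4 (0.93) did not pass. The fusion proteins Snap25 (-1.37, adjusted p 0.0781) and Stx1a (-0.41) and the vesicle GTPase Rab3a (0.04) did not pass either. Snap25 passed when MYC replicate 1, 2 or 3 was left out (-1.69, -1.65 and -1.63), as did Stx1a (-0.50, -0.51 and -0.49). Syt1 passed without MYC replicate 2 or 4 (-1.39 and -1.32) or HRAS replicate 3 or 5 (-1.32 and -1.46).

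Scg3, a granin that anchors granule cargo, ran from 6.52 to 10.59 (median 8.0) in MYC and was 4.59, 4.00, 7.54, 4.07 and 3.82 in HRAS. HRAS replicate 3 overlapped with MYC and the other HRAS arrays did not. The fall was -3.49 ± 0.808 (adjusted p 0.00112). Chgb, chromogranin B, passed narrowly (-0.98 ± 0.383, adjusted p 0.0493). It was 8.10 and 7.00 in MYC replicates 4 and 5, 6.17 in replicate 6 and 4.91 to 5.56 in the rest, and without MYC replicate 4 it did not pass (-0.59, adjusted p 0.160). It was also lost without MYC replicate 5 (-0.81), MYC replicate 6 (-0.98) or any single HRAS array (-0.95 to -1.03), and was -0.28 without both MYC replicates 4 and 5. Scg2 did not pass (-0.40).

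All 3 neuronal Elavl genes, RNA-binding proteins that stabilise neuronal transcripts, were separated cleanly. Elavl2 was 7.95 to 10.48 (median 8.58) in MYC and 5.24, 4.92, 6.62, 6.00 and 5.30 in HRAS (-3.30 ± 0.358, adjusted p 3.5e-08). Elavl3 was 7.26 to 10.28 (median 8.03) against 5.54, 5.61, 6.41, 5.76 and 5.58 (-2.70 ± 0.477, adjusted p 5.42e-05). Elavl4 was 6.81 to 8.55 (median 7.48) against 4.93, 4.73, 6.26, 3.95 and 4.37 (-2.74 ± 0.364, adjusted p 9.03e-07). For each of them every HRAS array lay below every MYC array. Rbfox3, the splicing factor known as NeuN (-1.13 ± 0.354, adjusted p 0.0132), and Celf3 (-0.83 ± 0.295, adjusted p 0.0291) also fell, but neither passed without MYC replicates 4 and 5 (-0.48 and -0.57). Celf3 was also lost without MYC replicate 5 (-0.59), MYC replicate 6 (-0.64), HRAS replicate 4 (-0.82) or HRAS replicate 5 (-0.79). Rbfox1 did not pass (0.06), except without MYC replicates 4 and 5 (0.63, adjusted p 3.05e-04). Of the adhesion and signalling members, Ncam1 (0.03), L1cam (-0.80), Nrxn3 (-0.46) and Pcp4 (-1.21) did not pass.

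Myt1, a zinc finger factor of neural differentiation, was 7.89 to 9.20 (median 8.83) in MYC and 5.44, 4.75, 6.42, 5.38 and 5.05 in HRAS. The groups lay apart, and Myt1 fell by -3.24 ± 0.373 (adjusted p 9.45e-08). Its relatives Myt1l and St18 behaved differently, since both were highest in MYC replicates 4 and 5. St18 was 9.18 and 8.20 there, 6.40 in replicate 6 and 5.05 to 5.68 in the other MYC arrays, and its fall (-1.54 ± 0.593, adjusted p 0.0450) was lost without MYC replicate 4 (-1.03) or 5 (-1.23). It was also lost without MYC replicate 6 or any single HRAS array, where the difference stayed at -1.5 to -1.60, and was -0.50 without both MYC replicates 4 and 5. Myt1l missed the threshold (-1.18, adjusted p 0.0655) except without MYC replicate 1, 2 or 3 (-1.43, -1.45 and -1.40).

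**Figure D2:**
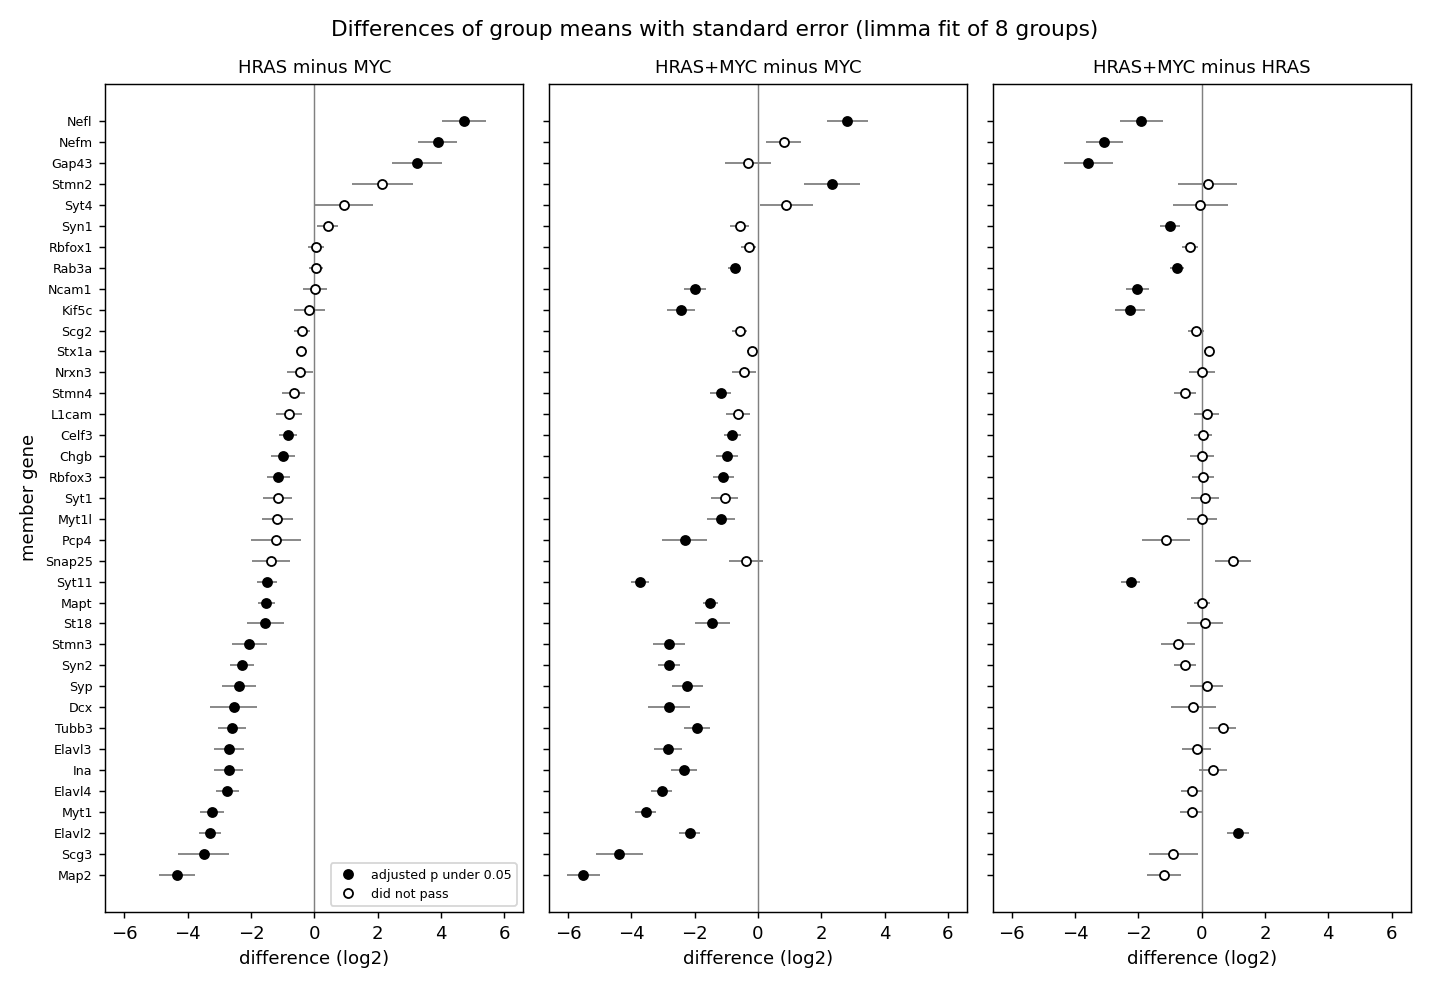
Points are differences of group means in log2 units and bars the standard error of the limma fit, for HRAS minus MYC, HRAS+MYC minus MYC and HRAS+MYC minus HRAS, with the 37 members in the order of the first panel and filled points at adjusted p under 0.05. Map2 lies farthest left (-4.34 and -5.51) in both comparisons with MYC, Nefl farthest right (4.74 and 2.83), and in the third panel Gap43 (-3.58) and Nefm (-3.07) lie lowest.

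Array by array, the MYC group was not uniform in these genes. The median member of MYC replicates 4 and 5 lay 1.31 and 1.59 above the group's median, against -0.49, -0.50 and -0.36 in replicates 1 to 3 and 0.36 in replicate 6. In replicates 4 and 5, 22 and 23 members (59.5% and 62.2%) stood more than 1 log2 unit above the group's median, a share that was 4.7% and 3.44% over all genes. The members varied more than most genes over the 32 arrays, so they pass a fixed cut of 1 log2 unit more easily than all genes do. Replicates 4 and 5 held the highest MYC value of 18 and 10 of 37 members, and of 18.2% and 19.6% of all genes. Without both, Syt1 (-1.47, adjusted p 0.0282) was also called lower in HRAS, and Syt4 (2.31, adjusted p 0.0334) and Rbfox1 (0.63, adjusted p 3.05e-04) higher. Pcp4, a small calmodulin-binding protein, was 10.44 and 11.09 in these 2 arrays and 5.73 to 7.82 in the other MYC arrays. L1cam, an axonal adhesion molecule, was 8.53 and 7.18 against 5.07 to 5.30. Myt1l was 8.49 and 8.46 against 5.23 to 6.62. Syt4, a synaptotagmin of dense-core vesicles, was 9.85 and 9.43 against 5.01 to 6.67.

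Map2 went the other way in these 2 arrays, which at 9.55 and 9.80 held the lowest MYC values. Myt1 (8.82 and 7.89) and Elavl4 (7.16 and 8.05) were not at their highest there either. Several genes that are no members moved with the pair. The proneural gene Neurod1 reached 10.55 and 10.83, and lay at 3.39 to 3.85 in the other MYC arrays. The mean over 7 oligodendrocyte lineage markers was 5.64 and 5.62 against 8.01 to 8.55, that over 5 neural stem markers 6.70 and 7.53 against 9.26 to 10, and that over 6 astrocyte markers 6.96 and 6.50 against 7.62 to 9.19. Of the neural stem markers Prom1 was higher in the pair (8.11 and 8.33 against 4.98 to 6.67). Microglia and macrophage markers were 4.71 and 4.76, as in the other MYC arrays (4.72 to 4.76). The part of these marker levels in the member values was not tested. MYC replicate 6 differed in another gene, since Nrxn3, a presynaptic neurexin, was 7.96 there and 5.01 to 5.40 in the other 5.

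In the HRAS group replicate 3 stood apart. Its median member lay 0.51 above the group's median, between -0.06 and 0.07 in the other 4, and 11 of 37 members (29.7%, against 3.21% of all genes) were more than 1 log2 unit above it. The fixed cut favours the widely varying members here too. Replicate 3 held the highest HRAS value of 19 of 37 members (21.5% of all genes), Map2, Tubb3, Syp, Scg3 and the 3 Elavl genes among them. It was not the highest in Nefl and Nefm, where its 9.86 and 9.44 were the lowest HRAS values. The mean over neural stem markers was also highest in this array (8.72 against 7.48 to 7.87). This came through Fabp7 (9.89 against 4.17 to 4.6), while Hes5 (7.14) was at its lowest HRAS value there. The mean over oligodendrocyte lineage markers was highest too (7.46 against 6.14 to 6.59). That over astrocyte markers (6.89 against 6.16 to 6.27) was highest through Slc1a3 (8.87 against 4.88 to 6.24). The adhesion gene Cntn1, no member, was 9.24 there and 4.48 to 4.52 in the other HRAS arrays. The part of these levels in the member values was not tested.

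**Figure D3:**
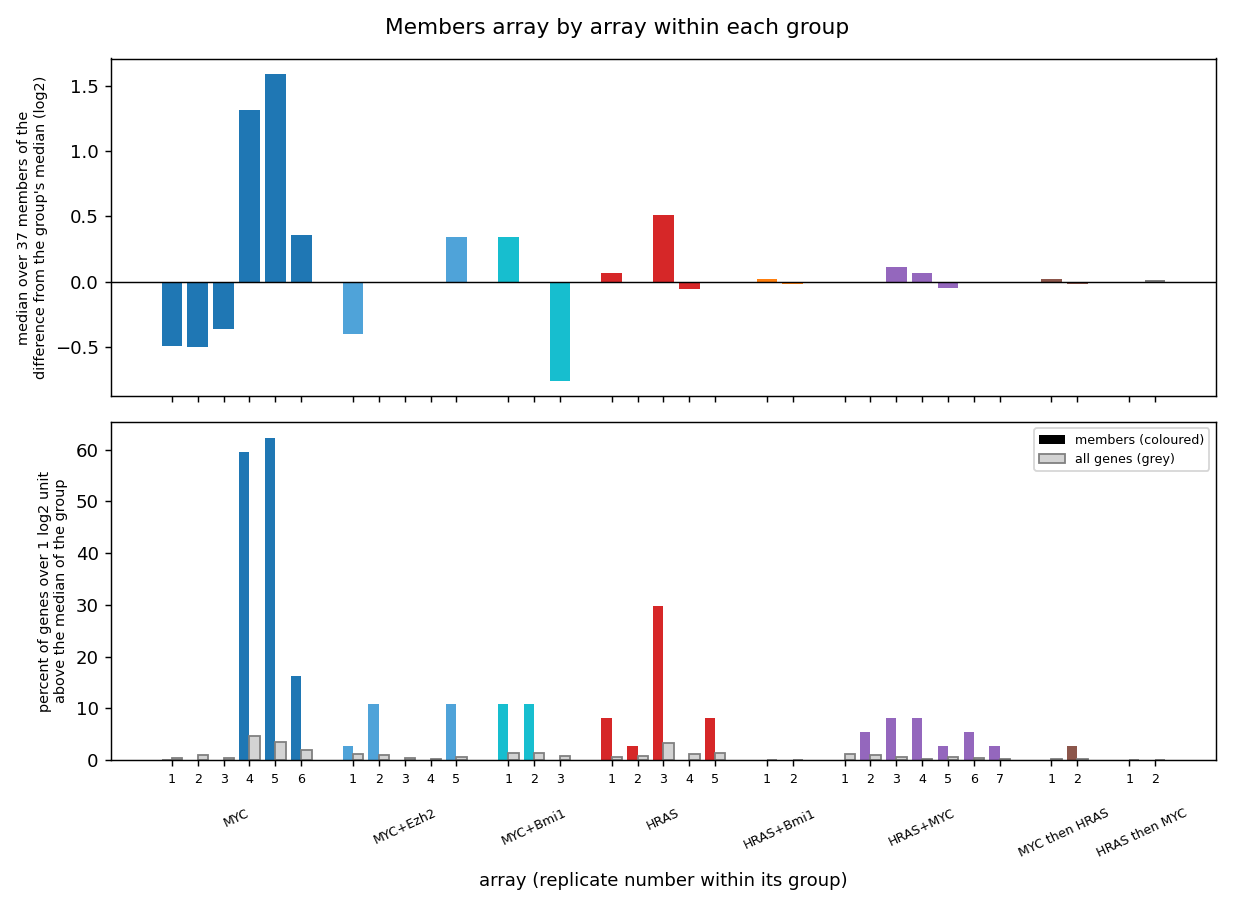
The upper panel shows, for each of 32 arrays, the median over 37 members of the log2 difference from the group's median, and the lower panel the percent of members (coloured) and of all genes (grey) more than 1 log2 unit above the group's median. MYC replicates 4 and 5 reach 1.31 and 1.59 and 59.5% and 62.2%, HRAS replicate 3 reaches 0.51 and 29.7%, and MYC+Bmi1 replicate 3 is lowest at -0.76.

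HRAS+MYC cells, from AT/RT-like tumours, were set against each single oncogene. Against MYC 24 of 37 members were lower and 2 higher in HRAS+MYC, where 34.2% of all genes passed (18.4% lower and 15.8% higher). The median member difference was -1.18, against 0.03 over all genes. Of 37 members 15 lay apart without overlap, a larger share than the 15.4% of all genes. The members that fell came from every role, with 8 of 12 cytoskeletal genes, 4 of 9 vesicle genes, 2 of 3 granule genes, 2 of 4 adhesion and signalling genes, 5 of 6 RNA-binding genes and all 3 transcription factors. Oligodendrocyte lineage markers (4 of 7 lower, median -1.12), astrocyte markers (3 of 6 lower, median -1.13) and neural stem markers (3 of 5 lower, median -1.38) moved beside them, and their part in the member differences was not tested. The MYC arrays are the same ones as in the first comparison, so both sets of differences share them.

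Map2 was 4.90 to 5.44 (median 5.17) in the 7 HRAS+MYC arrays, below all MYC arrays by 4 log2 units or more, and fell by -5.51 ± 0.515 (adjusted p 1.82e-09). Tubb3 was 6.31 to 7.76 (median 6.96) and fell by -1.92 ± 0.407 (adjusted p 4.45e-04). Syp was 5.48 to 6.14 (median 5.92) and fell by -2.23 ± 0.490 (adjusted p 6.77e-04), or by -1.11 (adjusted p 0.00571) without MYC replicates 4 and 5. In all 3 genes the 7 HRAS+MYC arrays lay below all 6 MYC arrays. Scg3 was 3.31 to 4.28 (median 3.98), near the bottom of the scale, and fell by -4.38 ± 0.743 (adjusted p 2.98e-05). Myt1 fell by -3.55 ± 0.342 (adjusted p 3.19e-09) to 4.88 to 5.21 (median 5.13). Syt11, a synaptotagmin that does not bind calcium, was 9.85 to 11.16 (median 10.53) in MYC and 6.35 to 7.61 (median 6.58) in HRAS+MYC. It fell by -3.72 ± 0.288 (adjusted p 5.49e-11), the smallest p of a member. Elavl4 fell by -3.05 ± 0.334 and Elavl3 by -2.85 ± 0.439 (adjusted p 3.33e-08 and 7.56e-06).

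Kif5c and Ncam1, which had not passed in HRAS cells, were lower in HRAS+MYC. Kif5c was 5.16 to 6.20 (median 5.81) against 6.55 to 9.95 (median 7.68) in MYC (-2.42 ± 0.448, adjusted p 8.91e-05), and the fall was -1.52 (adjusted p 0.00106) without MYC replicates 4 and 5. Ncam1, the neural cell adhesion molecule, was 6.12 to 9.20 (median 8.29) against 9.43 to 10.64 (median 10.16) (-2.0 ± 0.350, adjusted p 4.55e-05). Neither gene overlapped between the groups. The 2 members that rose were Nefl (2.83 ± 0.645, adjusted p 9.69e-04), with 7.42 to 10.52 (median 9.41), and Stmn2 (2.34 ± 0.883, adjusted p 0.0405), with 7.64 to 9.70 (median 8.56). Both overlapped with MYC replicates 4 and 5, and Stmn2 did not pass when any single array other than MYC replicate 4 or 5 or HRAS+MYC replicate 1 or 2 was left out (1.89 to 2.38). Gap43 (-0.32) and Nefm (0.82) did not pass, and Nefm passed without MYC replicates 4 and 5 (1.90, adjusted p 0.00149).

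Of the 26 calls against MYC, 17 held under every alternative setting. The fall of Pcp4 (-2.32 ± 0.724, adjusted p 0.0133) was lost without MYC replicate 4 (-1.79) or 5 (-1.66), and that of Celf3 (-0.80) without MYC replicate 5 (-0.56) or 6 (-0.61). Chgb (-0.97) was lost without MYC replicate 4 (-0.58), MYC replicate 5 (-0.80), HRAS+MYC replicate 2 (-0.94) or HRAS+MYC replicate 4 (-0.95). Myt1l (-1.16) and St18 (-1.44) were lost without MYC replicate 4 (-0.79 and -0.92), MYC replicate 5 (-0.79 and -1.12), MYC replicate 6 or any single HRAS+MYC array, and also when each array was centred on its median (-1.06 and -1.33). Stmn4 (-1.18), Rbfox3 (-1.09) and Rab3a (-0.73) were lost only when both MYC replicates 4 and 5 were left out or, for Stmn4 and Rbfox3, under array weights. Without both replicates the values were -0.75, -0.44 and -0.53, Pcp4 (-0.83), Chgb (-0.27), Celf3 (-0.54), Myt1l (-0.23) and St18 (-0.39) did not pass, while Ina passed at -1.40 (adjusted p 1.68e-04) and Stmn2 at 3.76 (adjusted p 7.31e-04). Scg2 (-0.58) passed without MYC replicate 1, 2 or 3 (-0.71, -0.76 and -0.71), and Syt1 (-1.05) without MYC replicate 2 or 4 or HRAS+MYC replicate 7 (-1.29, -1.22 and -1.18).

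Against HRAS, 8 of 37 members were lower and 1 higher in HRAS+MYC, or 24.3% of members. Over all genes 24.7% passed, 13% lower and 11.7% higher. The total share of members called thus stood near the background, while the calls leaned towards falls more than over all genes. The median member difference was -0.18, against 0.05 over all genes, and 6 members lay apart without overlap (12.3% of all genes). Gap43 was 6.72 to 8.80 (median 7.48) in HRAS+MYC, below all 5 HRAS arrays, and fell by -3.58 ± 0.766 (adjusted p 8.83e-04). Nefm was 5.44 to 8.26 (median 6.80), also below all HRAS arrays, and fell by -3.07 ± 0.584 (adjusted p 2.57e-04). Nefl fell by -1.91 ± 0.679 (adjusted p 0.0395) with overlapping groups. This call was lost without HRAS replicate 1, 2 or 5 (-1.75, -1.94 and -1.61) or HRAS+MYC replicate 1, 3 or 5 (-1.65, -1.81 and -1.62).

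Kif5c fell by -2.26 ± 0.471 (adjusted p 6.74e-04) from 9.11, 8.82, 7.44, 7.44 and 6.96 in HRAS, and Syt11 by -2.24 ± 0.303 (adjusted p 3.26e-06) from 9.15, 9.02, 10.08, 8.90 and 8.14. Neither overlapped. Ncam1 fell by -2.03 ± 0.369 (adjusted p 1.51e-04), and HRAS replicate 2 (9.15) lay just inside the HRAS+MYC range. Smaller falls were those of Syn1 (-1.0 ± 0.320, adjusted p 0.0218, lost without HRAS replicate 3 at -0.80) and Rab3a (-0.77 ± 0.214, adjusted p 0.00851). Elavl2 rose by 1.14 ± 0.346 (adjusted p 0.0158), with 5.97 to 7.35 (median 6.76) in HRAS+MYC, and was lost without HRAS replicate 2 (0.96). Map2 (-1.18, adjusted p 0.119), Tubb3 (0.66) and Syp (0.16) did not pass.

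**Figure D4:**
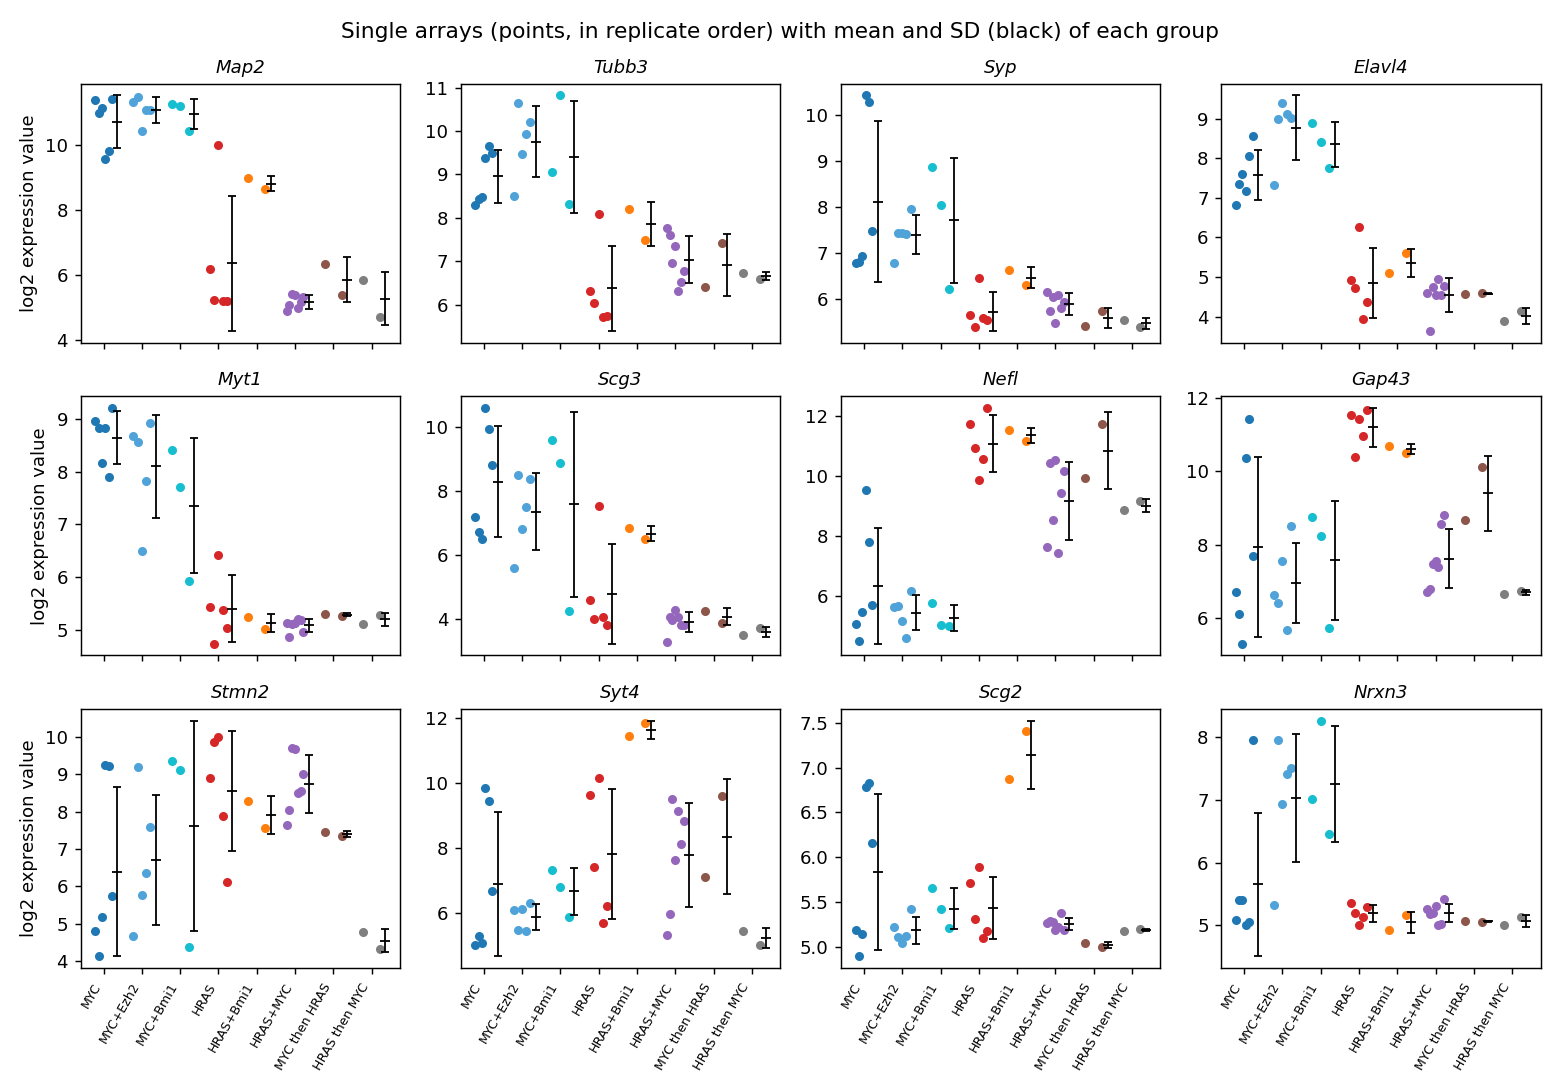
Each panel shows the log2 values of 12 members in single arrays (points, in replicate order within 8 groups) with the group's mean and SD in black. Map2, Tubb3, Syp, Elavl4, Myt1 and Scg3 are high in the 3 MYC groups, and Nefl is high in the groups with HRAS. Gap43 has its highest means in HRAS and HRAS+Bmi1 (11.2 and 10.6), and is lower in HRAS+MYC and HRAS then MYC (7.62 and 6.7). Scg2 and Syt4 are highest in the 2 HRAS+Bmi1 arrays (6.87 and 7.41, and 11.42 and 11.82).

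Adding a Polycomb gene to MYC left no member past the test. With Ezh2, 0 of 37 passed (limma; 0.246% of all genes, 0.13% higher and 0.115% lower), 7 had an unadjusted p under 0.05, and the median difference was -0.29 (0.02 over all genes). With Bmi1, 0 of 37 passed (0.15% of all genes, 0.1% higher and 0.0502% lower), 5 had an unadjusted p under 0.05, and the median was 0.23 (0.02 over all genes). No member lay apart without overlap in either comparison (0.958% and 4.09% of all genes). Map2 was 11.31, 11.48, 10.43, 11.07 and 11.07 in MYC+Ezh2 and 11.26, 11.18 and 10.42 in MYC+Bmi1, within or just above the MYC range. Tubb3 was 8.51, 10.65, 9.46, 9.94 and 10.21 in MYC+Ezh2 and 9.06, 10.82 and 8.32 in MYC+Bmi1. Syp was 6.77 to 7.95 in MYC+Ezh2 and 8.86, 8.04 and 6.21 in MYC+Bmi1, and no difference of these 3 genes from MYC passed (adjusted p 0.538 to 0.921).

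One array in each of these groups was low in the members. MYC+Ezh2 replicate 1 held the lowest value of 20 of 37 members (23.1% of all genes), among them Dcx (5.59 against 9.40 to 11.19), Elavl4 (7.33 against 8.98 to 9.39) and Nrxn3 (5.32 against 6.94 to 7.96). Without it Dcx (2.45, adjusted p 0.0348), Elavl4 (1.54, adjusted p 0.0195) and Nrxn3 (1.80, adjusted p 0.0145) were higher in MYC+Ezh2 than in MYC, and Mapt lower (-1.33, adjusted p 0.00754). This array was the highest of its group in neural stem markers (9.25 against 7.88 to 8.84) and oligodendrocyte lineage markers (7.78 against 5.92 to 7.63), and their part was not tested. MYC+Bmi1 replicate 3 held the lowest value of 33 of 37 members (34.5% of all genes), with Scg3 at 4.27 against 9.59 and 8.89 and Stmn2 at 4.36 against 9.36 and 9.12. The median member stood at -0.76 from the group's median there. Neural stem markers averaged 8.07 in this array against 8.85 and 7.52, and oligodendrocyte lineage markers 6.62 against 8.19 and 5.9, and their part was not tested. Neurod1 was 7.87 in MYC+Bmi1 replicate 1 and 3.49 and 3.37 in the others. Without MYC replicate 6, Nrxn3 was called higher in MYC+Ezh2 (1.83, adjusted p 0.0110) and in MYC+Bmi1 (2.05, adjusted p 0.0104), and without MYC replicate 3 Mapt was called lower in MYC+Ezh2 (-1.33, adjusted p 0.0118). Without MYC replicates 4 and 5, Ina (1.64, adjusted p 0.00912) and Stx1a (0.64, adjusted p 0.00200) were called higher in MYC+Bmi1.

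With Bmi1 added to HRAS, few members passed. Of 37 members 3 were higher and none lower in HRAS+Bmi1 than HRAS (limma), 8.11% of members against 5.91% of all genes (2.87% higher, 3.04% lower), and the median difference was 0.28 (-0.01 over all genes). In 9 members the arrays lay apart, as in 22.7% of all genes, so both counts stood near the background. Scg2, secretogranin II, was 6.87 and 7.41 in HRAS+Bmi1 and 5.71, 5.31, 5.89, 5.10 and 5.18 in HRAS, and rose by 1.70 ± 0.351 (adjusted p 0.00327). Stmn3 was 9.28 and 8.86, above every HRAS array, and rose by 2.64 ± 0.760 (adjusted p 0.0356). Syt11 was 10.59 and 10.53, also above every HRAS array, and rose by 1.5 ± 0.433 (adjusted p 0.0361). With 2 arrays in the group none of these calls was robust. Scg2 was lost without HRAS+Bmi1 replicate 2 (1.43, adjusted p 0.134), and Stmn3 and Syt11 without either HRAS+Bmi1 array or HRAS replicate 2, 4 or 5 (adjusted p 0.0536 to 0.375). With both of its probe sets averaged, the Stmn3 difference was 1.27 (adjusted p 0.0568).

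Syt4 was 11.42 and 11.82 in HRAS+Bmi1, the highest values of this gene in any array, and 9.63, 7.41, 10.15, 5.70 and 6.20 in HRAS. At 3.80 it missed the threshold (adjusted p 0.0730), and was called without HRAS replicate 1 (4.25, adjusted p 0.0485) or 3 (4.38, adjusted p 0.0260). Map2 was 8.98 and 8.64, between the 4 low HRAS arrays and HRAS replicate 3, and the difference of 2.44 did not pass (adjusted p 0.0599). Without HRAS replicate 3 Map2 was 3.35 higher in HRAS+Bmi1 (adjusted p 1.2e-05) and Tubb3 1.91 higher (adjusted p 0.0303). That array was outlying in both genes, so leaving it out narrows their spread, and these p-values only describe its weight. With that array Tubb3 (1.48, adjusted p 0.175) and Syp (0.74, adjusted p 0.708) did not pass. The neural stem markers averaged 9.69 and 9.76 in HRAS+Bmi1 against 7.48 to 8.72 in HRAS, and the astrocyte markers 7.19 and 7.29 against 6.16 to 6.89. Their part in the member differences was not tested.

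The Bmi1 effect differed between MYC and HRAS cells for 1 of 37 members (2.43% of all genes, 1.1% higher and 1.33% lower). For Scg2 the Bmi1 effect in MYC cells minus that in HRAS cells was -2.11 ± 0.459 (adjusted p 0.0123). In MYC+Bmi1 Scg2 was 5.66, 5.42 and 5.21, inside the MYC range of 4.90 to 6.83. The interaction was lost without HRAS+Bmi1 replicate 2 (-1.84, adjusted p 0.134). Without HRAS replicate 3 the interaction also passed for Map2 (-3.10, adjusted p 0.00164) and Syt11 (-2.09, adjusted p 0.0199), and without MYC replicate 6 for Nrxn3 (2.20, adjusted p 0.0254).

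When HRAS was added to cells of a MYC tumour, many members fell. Of 37 members 16 were lower and 1 higher in MYC then HRAS than in MYC, where 20.4% of all genes passed (10.6% lower and 9.83% higher), and the median difference was -1.19 (0.03 over all genes). In 19 of 37 members the arrays lay apart, a larger share than the 28% of all genes. Map2 was 6.36 and 5.38, below all MYC arrays (-4.83 ± 0.756, adjusted p 2.78e-05). Scg3 was 4.27 and 3.89 (-4.21 ± 1.09, adjusted p 0.00586), Myt1 5.31 and 5.27 (-3.36 ± 0.502, adjusted p 1.61e-05) and Syt11 7.92 and 6.65 (-3.25 ± 0.423, adjusted p 2.13e-06). Tubb3 (6.40 and 7.41, -2.05 ± 0.598, adjusted p 0.0143) and Syp (5.42 and 5.73, -2.53 ± 0.720, adjusted p 0.0120) also fell. Nefl was 9.94 and 11.74, above all MYC arrays, and rose by 4.51 ± 0.946 (adjusted p 8.84e-04).

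Of these 17 calls 5 held under every setting, Map2, Myt1, Syt11, Elavl4 and Syn2. Without MYC then HRAS replicate 1 Tubb3 (-1.54), Syp (-2.38), Stmn3 (-2.78), Ina (-2.04), Dcx (-3.07), Elavl2 (-1.23), Elavl3 (-2.45) and Rab3a (-1.13) did not pass. Without MYC then HRAS replicate 2 the calls of Scg3 (-4.02), Nefl (3.61), Syp (-2.69), Stmn3 (-2.26), Ina (-2.54), Mapt (-1.42), Dcx (-2.85), Elavl2 (-1.76), Ncam1 (-1.33) and Rab3a (-0.78) were lost. Without MYC replicates 4 and 5 the falls of Syp (-1.41) and Ina (-1.36) were smaller but passed, those of Elavl2 (-0.90), Stmn3 (-1.85), Rab3a (-0.75) and Dcx (-2.47) did not pass, and Gap43 (2.94) and Nefm (2.41) were called higher. Dcx was lost too without MYC replicate 4 (-2.79), 5 (-2.73) or 6 (-2.59), and Elavl2 without MYC replicate 4 (-1.33). Single MYC arrays also kept members out. Celf3 passed without MYC replicate 1, 2 or 3 (-1.15, -1.15 and -1.12), Scg2 without MYC replicate 2 or 3 (-1.0 and -0.95), Kif5c without MYC replicate 1 or 3 (-1.89 and -1.81), and Rbfox3 without MYC replicate 3 (-1.31).

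When MYC was added to cells of an HRAS tumour, 3 of 37 members fell and none rose (8.11% of members, 12.5% of all genes, 6.21% lower and 6.3% higher), with a median of -0.35 (0.04 over all genes). In 13 of 37 members the arrays lay apart, a somewhat larger share than the 28.6% of all genes. Gap43 was 6.66 and 6.74 in HRAS then MYC, far below every HRAS array, and fell by -4.50 ± 1.09 (adjusted p 0.00654). Stmn2 was 4.77 and 4.32 against 8.89, 9.86, 9.99, 7.87 and 6.11 (-4.0 ± 1.33, adjusted p 0.0463). Syt11 was 7.36 and 7.52 (-1.61 ± 0.433, adjusted p 0.0130). All 3 lay below every HRAS array, and all 3 calls were lost when either HRAS then MYC array was left out (adjusted p 0.0736 to 0.305). Stmn2 was lost too without HRAS replicate 1 (-3.91), 2 (-3.67), 3 (-3.64) or 4 (-4.17). Map2 (5.86 and 4.71, -1.08), Tubb3 (6.73 and 6.6, 0.29) and Syp (5.55 and 5.38, -0.26) did not pass.

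The secondary tumours were also set against cells that received both genes at once, and against each other. Between MYC then HRAS and HRAS+MYC 0 of 37 members passed in the limma test (0.11% of all genes, 0.0702% higher and 0.0401% lower), 0 had an unadjusted p under 0.05, and differences ran from -1.34 to 1.78, with 6 members lying apart (10.7% of all genes). Between HRAS then MYC and HRAS+MYC 1 member passed (2.7% of members, 12.1% of all genes, 5.17% lower and 6.89% higher), and 9 lay apart (27.9% of all genes). This was Stmn2, which fell by -4.19 ± 1.27 (adjusted p 0.0287) and was lost when either HRAS then MYC array was left out. Without HRAS+MYC replicate 1 Elavl2 was called lower as well (-1.52, adjusted p 0.0341). Between the 2 orders 0 of 37 passed (3.28% of all genes, 1.7% higher and 1.58% lower), and 20 lay apart (49.7% of all genes). An unadjusted p under 0.05 was seen in 3 members, and its share over all genes was not counted. Elavl2 came nearest (7.15 and 7.68 where HRAS came second, 5.47 and 5.25 where MYC did; 2.05, adjusted p 0.0523).

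Other genes of the same systems, from lists chosen with earlier results of these data known, were counted over the same tests. Of 22 other neuronal cytoskeleton genes 11 were lower and 4 higher in HRAS than in MYC, and 15 were lower and none higher in HRAS+MYC than in MYC (68.2% in each, against 33.4% and 34.2% of all genes). The kinesin Kif1a fell by -2.92 ± 0.377 and -3.39 ± 0.346 and the tubulin Tubb2b by -2.38 ± 0.301 and -3.24 ± 0.277 in these comparisons. Dclk1 (1.36 ± 0.353) and Map6 (1.11 ± 0.258), both microtubule proteins, rose in HRAS. Of 36 other synapse and vesicle genes 10 were lower and 4 higher in HRAS, and 16 lower and 1 higher in HRAS+MYC (38.9% and 47.2%, against 33.4% and 34.2% of all genes, the first near the background). The glutamate receptor subunit Gria2 fell by -3.48 ± 0.508 and -4.21 ± 0.467, the complexin Cplx1 by -3.02 ± 0.534 and -2.93 ± 0.491, and Syt7 rose by 2.08 ± 0.220 in HRAS+MYC.

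Of 7 other secretory granule genes 3 were higher and 1 lower in both comparisons (57.1%, against 33.4% and 34.2% of all genes). The peptide-amidating enzyme Pam rose by 1.36 ± 0.219 and 2.02 ± 0.201 and the carboxypeptidase Cpe by 1.32 ± 0.256 and 0.83 ± 0.235, while the chaperone-like Scg5 fell by -2.19 ± 0.402 and -1.96 ± 0.369. In HRAS+Bmi1 the neuropeptide precursor Vgf was 10.95 and 11.12, against 7.75, 6.83, 8.08, 6.13 and 6.91 in HRAS, and rose by 3.90 ± 0.427 (adjusted p 8.85e-07). Of 22 other cytoskeleton genes 5 were higher and none lower in HRAS+Bmi1 than HRAS (22.7%, against 5.91% of all genes), among them Kif1a (2.23 ± 0.520), Dpysl4 (2.21 ± 0.360) and Tubb2b (1.76 ± 0.416). Of 11 other adhesion genes 5 were lower and 3 higher in HRAS (72.7%, against 33.4% of all genes), among them Cntn1 (-3.93 ± 0.579), Ncam2 (-3.37 ± 0.483) and Alcam (1.58 ± 0.486). In HRAS+MYC 8 of these 11 were lower and 2 higher than in MYC (90.9%, against 34.2% of all genes). Of 25 neuronal transcription factors 6 were lower and none higher in HRAS (24%, against 33.4% of all genes), among them Pou3f2 (-1.98 ± 0.258). In HRAS+MYC 10 of these 25 were lower and 1 higher than in MYC (44%, against 34.2% of all genes).

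The repressor gene Rest was 6.31 to 7.92 (median 7.57) in MYC, 8.57, 8.95, 9.14, 9.13 and 9.05 in HRAS and 8.49 to 8.76 (median 8.62) in HRAS+MYC. All HRAS and HRAS+MYC arrays exceeded all MYC arrays, and Rest rose by 1.56 ± 0.183 (adjusted p 1.29e-07) and 1.20 ± 0.168 (adjusted p 1.9e-06). Within MYC the lowest value, 6.31, was that of replicate 4, while replicate 5 (7.44) lay among the others, and HRAS replicate 3 (9.14) was no lower than the other HRAS arrays. Rest was also 8.49 and 8.59 in HRAS+Bmi1, where 10 members had their highest group mean, and the relation of Rest to the members was not tested. Of the 11 genes of REST and its corepressors 3 fell and 1 rose in HRAS (36.4%, near the 33.4% of all genes). Rcor2 fell by -1.29 ± 0.190, the demethylase Kdm1a by -0.49 ± 0.142 and the deacetylase Hdac2 by -0.29 ± 0.0762. In HRAS+MYC 4 of the 11 genes fell and 1 rose (45.5%, against 34.2% of all genes).

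Of 12 genes that are broadly expressed relatives of members, 5 rose and 3 fell in HRAS (66.7%, against 33.4% of all genes, 15.4% higher and 18% lower). The tubulin Tubb6 rose by 2.46 ± 0.496 where Tubb3 fell, and the SNARE protein Snap23 by 1.44 ± 0.190 where its neuronal relative Snap25 did not pass. The stathmin Stmn1 fell by -1.08 ± 0.158, in the direction of Stmn3. Of 10 other neuronal RNA-binding genes 3 were lower and 1 higher in HRAS than in MYC (40%, against 33.4% of all genes). In HRAS+MYC 3 of these 10 were lower and none higher (30%, against 34.2% of all genes). Both shares stood near the background. Among these genes Ptbp2, a neuronal splicing regulator, fell by -1.45 ± 0.234 in HRAS and -2.27 ± 0.215 in HRAS+MYC.

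Promoters were available for 27 of the 37 members, as the 250 bases before each start in RefSeq (GRCm38.p6). The cAMP response element TGACGTCA, a palindrome that CREB-family factors bind, stood in the promoters of 5 of the 27 (18.5%), Scg2, Chgb, Kif5c, Syn1 and Celf3, and in those of 1.77% of 27025 genes. Of all 32851 promoters 1.55% held it, and of the 55 promoters of these members 7 did. A share per gene is raised where a gene has several promoters. The first part of the REST element, TTCAGCACC, searched on both strands, was found for Syn1 alone among members and in 0.348% of genes. The E-box CACGTG that MYC and MAX bind (6.86% of genes) and the AP-1 element TGACTCA (5.16% of genes) were in none of the 27. The E-box CAGATG of NeuroD factors was in 6 (22.2%, against 16.3% of genes). The 4 promoters below are shown because they hold the element and belong to members described above, Scg2 with its rise in HRAS+Bmi1, Chgb with its high values in MYC replicates 4 and 5, and Kif5c and Syn1 with their falls from HRAS to HRAS+MYC. Capitals mark TGACGTCA and, in Syn1, TTCAGCACC. These are Scg2 at chr1:79440027-79440276 (minus strand), Chgb at chr2:132781392-132781641 (plus), Kif5c at chr2:49619036-49619285 (plus) and Syn1 at chrX:20920919-20921168 (minus), each 5′ to 3′ and ending just before the start.
Scg2: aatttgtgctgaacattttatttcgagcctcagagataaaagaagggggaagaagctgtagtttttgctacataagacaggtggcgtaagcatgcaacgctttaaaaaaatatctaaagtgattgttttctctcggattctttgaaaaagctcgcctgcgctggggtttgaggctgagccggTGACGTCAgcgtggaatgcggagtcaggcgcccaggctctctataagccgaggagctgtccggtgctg
Chgb: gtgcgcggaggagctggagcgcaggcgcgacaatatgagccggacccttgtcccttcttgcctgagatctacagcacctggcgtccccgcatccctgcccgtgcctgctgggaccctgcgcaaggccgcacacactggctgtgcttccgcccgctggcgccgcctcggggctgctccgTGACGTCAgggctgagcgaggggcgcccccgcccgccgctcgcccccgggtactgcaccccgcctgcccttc
Kif5c: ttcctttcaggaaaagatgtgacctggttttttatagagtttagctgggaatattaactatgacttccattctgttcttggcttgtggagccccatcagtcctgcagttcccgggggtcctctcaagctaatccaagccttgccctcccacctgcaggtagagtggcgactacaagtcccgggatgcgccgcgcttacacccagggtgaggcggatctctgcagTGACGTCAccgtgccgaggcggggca
Syn1: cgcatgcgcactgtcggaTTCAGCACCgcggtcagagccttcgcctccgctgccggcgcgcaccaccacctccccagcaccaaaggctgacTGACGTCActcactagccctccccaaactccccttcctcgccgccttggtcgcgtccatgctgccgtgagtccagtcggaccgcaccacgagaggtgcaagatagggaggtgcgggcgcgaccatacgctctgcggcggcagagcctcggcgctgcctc
The element lay at positions -68, -72 and -26 from the start in Scg2, Chgb and Kif5c and at -159 in Syn1. A match describes the letters alone, and binding was not measured here.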

How the data were processed

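Total RNA of 32 neurosphere cultures was hybridised to Mouse Gene 1.0 ST arrays from Affymetrix. The deposited values are log2 RMA values, and the submitters' processing notes name Affymetrix Expression Console 1.0. This method gives the probe values of all arrays the same distribution before they are summarised. A shift of most genes at once thus cannot be seen, and weak probe sets lie near a floor. Array medians of the summarised values still ran from 5.59 to 5.79. No detection values were used.

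Of 35557 probe sets, 21789 carried 1 gene symbol, 1621 several and 12147 none in the platform annotation. The probe set with the highest mean stood for each of 19938 genes. Group means of all 8 groups were fitted in limma 3.58.1 (R 4.3.3) with empirical Bayes moderation, and p-values were adjusted by Benjamini-Hochberg over all genes and called under 0.05, in 12 comparisons. The script was tested on simulated data. Members and lists were chosen with earlier results of these data known. Every member could be named. Values are given for the called members with the widest differences (up to 6 per direction in the first 3 comparisons, 4 in the others), for Map2, Tubb3 and Syp in any case, and for members with an outlying array, and further members were named after their values were seen. From other lists called genes with the widest differences could be named (up to 3 per direction). The number of arrays limits precision. Alternatives were the mean of probe sets, a filter on dim genes (6.28), median centring, trended and robust moderation, array weights, a replicate block, the compared groups alone and left-out arrays.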

Additional observations from a re-analysis of the deposited data

Results flagged for a closer look

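In groups of 4 to 10 arrays, the highest or lowest array was compared with the gap to its nearest neighbour by Dixon's ratio. Of 148 pairs of member and group 10 (6.76%) exceeded the 95% critical value, and chance alone exceeds it in about 1 in 20.

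HRAS replicate 3 stood above the other 4 HRAS arrays in 5 members. Map2 was 9.99 there (5.20 to 6.18 in the others), Tubb3 8.08 (5.72 to 6.31), Syp 6.45 (5.38 to 5.65), Elavl3 6.41 (5.54 to 5.76) and Scg3 7.54 (3.82 to 4.59). MYC+Ezh2 replicate 1 stood below its group in Elavl4 at 7.33 (8.98 to 9.39) and Syt1 at 6.77 (8.73 to 9.06). Nrxn3 was 7.96 in MYC replicate 6 (5.01 to 5.40), Ncam1 9.15 in HRAS replicate 2 (10.25 to 10.63) and Elavl4 3.64 in HRAS+MYC replicate 2 (4.54 to 4.96).

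The effect of Bmi1 on Scg2 differed between MYC and HRAS cells, with an interaction of -2.11 in log2 units in the limma fit (adjusted p 0.0123), and this did not pass without HRAS+Bmi1 replicate 2 (adjusted p 0.134).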

How the results depend on the processing

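No called difference reversed under any setting run. Counts of members called within 1.5 times the main count under every setting were those of HRAS against MYC (21, and 18 to 25 with 1 array left out), HRAS+MYC against MYC (26, 21 to 27) and MYC then HRAS against HRAS+MYC (0 throughout). HRAS+MYC against HRAS went from 9 to 14 with the compared groups alone. With array weights MYC+Ezh2 against MYC had 6 calls, MYC+Bmi1 against MYC 1, HRAS+Bmi1 against HRAS 9, HRAS then MYC against HRAS 7 and against HRAS+MYC 6, both orders against each other 1 and the Bmi1 interaction 4. With the compared groups alone MYC then HRAS against MYC had 10, HRAS then MYC against HRAS 1 and against HRAS+MYC 5, the orders 2 and the interaction 0. With the filter on dim genes HRAS+Bmi1 against HRAS had 5, HRAS then MYC against HRAS+MYC 2 and the orders 1. Without MYC replicates 4 and 5, MYC+Bmi1 against MYC had 2, Ina and Stx1a. With 1 array left out, counts were 0 to 4 for MYC+Ezh2 against MYC, 0 to 1 for MYC+Bmi1 against MYC, 0 to 6 for HRAS+Bmi1 against HRAS, 7 to 21 for MYC then HRAS against MYC, 0 to 3 for HRAS then MYC against HRAS, 0 to 2 against HRAS+MYC and 0 to 3 for the interaction. A group left with 1 array is assumed to vary like the others. The replicate numbers showed no pairing over all groups, as deviations of 79 same-numbered pairs correlated at a median of 0.01 (-0.3 to 0.43) against 0 for 355 other pairs. A median over all groups cannot exclude pairing between single ones. A replicate block gave 19, 24, 9, 0, 0, 1, 14, 2, 0, 0, 1 and 1 calls in the order HRAS and HRAS+MYC against MYC, HRAS+MYC against HRAS, MYC+Ezh2, MYC+Bmi1, HRAS+Bmi1, MYC then HRAS and HRAS then MYC against their single oncogene, both secondary groups against HRAS+MYC, the orders and the interaction. The cause of these changes was not tested. Low members near the floor of the arrays, such as Scg3 in HRAS+MYC, may differ by more than the values show.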
